A study of Mus musculus with 16 samples.

Results

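The Z-disc and stretch response genes described here are 10 genes named by symbol: Ankrd1, Ankrd2, Xirp1, Xirp2, Csrp3, Fhl1, Fhl2, Ldb3, Myoz2 and Flnc. All 10 were found among the 57186 gene identifiers of the count table, and all 10 passed the filter on low counts that left 15206 genes for testing. The RNA came from the left ventricle of C57/BL6N mice, either controls labelled WT or mice in which Tfeb was deleted in cardiomyocytes (cKO). Each genotype was studied after sham surgery (Sham) or after narrowing of the aortic arch (transverse aortic constriction, TAC), which makes the left ventricle pump against a higher pressure. Genotype and surgery gave 4 groups of 4 biological replicates, 16 libraries in all. Age, sex, the time between surgery and tissue collection, and the promoter and Cre line behind the deletion are not given in the labels, nor is it stated whether the WT animals carried floxed alleles or Cre. Deletion in cardiomyocytes leaves Tfeb intact in the other cells of the ventricle.

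The Z-disc is the protein lattice at which the thin filaments and titin of neighbouring sarcomeres are anchored. It also carries proteins that bind titin, actin or signalling enzymes and that take part in the response of cardiomyocytes to stretch, some of them by moving between the sarcomere and the nucleus. Several of their genes are widely used as markers of pressure overload. TFEB is a transcription factor of lysosome and autophagy genes that binds E-boxes with the core CACGTG.

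Tfeb checked the genotype labels first. Its level in CPM, the count scaled by library size, was 36.5 ± 3.94 (SD, n = 4) in WT sham and 10.5 ± 1.74 in cKO sham, a log2 difference of -1.80 (SE 0.30, adjusted p = 0.000604). After TAC it was 29.1 ± 9.77 in WT and 12.7 ± 2.34 in cKO (-1.19, SE 0.29, adjusted p = 0.0138), and in neither surgery did a cKO library reach the lowest WT library. Library totals ran from 12946878 to 16347388 counts. A pair of WT libraries stood apart in transcripts of atrial muscle. The summed level of Myl4, Myl7 and Sln was 2391 CPM in WT sham replicate 3 and 797 CPM in WT TAC replicate 4. It was 2.06 to 249 CPM in the other 6 WT libraries and 3.81 to 22.4 CPM in the 8 cKO libraries. WT sham replicates 2 and 4, at 249 and 131 CPM, also lay above every cKO library. They stay in the fits that leave out the pair. The summed level of 10 cardiomyocyte markers ranged from 70300 to 83800 CPM after sham surgery and 62120 to 72940 after TAC in WT, and from 69150 to 81220 and 46790 to 65440 in cKO. In whole tissue, fewer cardiomyocytes and less of a transcript in each cardiomyocyte cannot be told apart. Of 10 skeletal muscle markers the defining genes Myh1, Myh2, Myh4 and Actn3 were under 1 CPM in every library. The sum of the 10 was nonetheless 18.8 to 52.3 CPM after sham surgery and 67.2 to 152 after TAC in WT, and 59.0 to 74.9 and 133 to 226 in cKO. Most of it was Mybpc2, which rose in WT TAC (1.97 log2, adjusted p = 0.00198) and in cKO TAC (1.44 log2, adjusted p = 0.00614). Tnnt3 rose in cKO TAC (2.65 log2, adjusted p = 0.00219), from a mean of 1.31 to 8.24 CPM. The other tested markers, Tnni2, Mylpf and Atp2a1, had lower estimates after TAC and did not pass. Their log2 changes in WT and cKO were -0.86 and -0.66 (Tnni2), -0.90 and -0.31 (Mylpf), and -1.45 and -1.2 (Atp2a1). The part of the skeletal muscle markers in the results for Ankrd2 and the other genes was not tested.

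The sequences just before the transcription starts of 6 members are shown because these genes divided into ones that rose with TAC in WT hearts (Ankrd1, Ankrd2, Xirp2 and Fhl1) and ones that did not pass there (Fhl2 and Myoz2). Each window holds the 250 bases before a start in RefSeq annotation of GRCm38.p6, read 5′ to 3′ on the strand of the gene. Ankrd1 lies on the minus strand at chr19:36119845-36120094, Ankrd2 on the plus strand at chr19:42035777-42036026 and Xirp2 on the plus strand at chr2:67445752-67446001. The Fhl1 window shown is on the plus strand at chrX:56779433-56779682, that of Fhl2 on the minus strand at chr1:43196762-43197011 and that of Myoz2 on the minus strand at chr3:123034988-123035237. Fhl1 and Fhl2 each have another window that is not shown, without a match in Fhl1 and with a CArG box alone in Fhl2. Capitals mark matches to CATTCC on either strand (the M-CAT element of TEAD factors), to the CArG box of SRF, to the MEF2 box or to TATAAA on the sense strand.
Ankrd1: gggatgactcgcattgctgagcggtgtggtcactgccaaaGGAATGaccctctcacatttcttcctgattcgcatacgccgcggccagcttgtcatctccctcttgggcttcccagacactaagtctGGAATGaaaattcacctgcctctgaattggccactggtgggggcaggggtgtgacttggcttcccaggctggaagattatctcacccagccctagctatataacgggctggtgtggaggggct
Ankrd2: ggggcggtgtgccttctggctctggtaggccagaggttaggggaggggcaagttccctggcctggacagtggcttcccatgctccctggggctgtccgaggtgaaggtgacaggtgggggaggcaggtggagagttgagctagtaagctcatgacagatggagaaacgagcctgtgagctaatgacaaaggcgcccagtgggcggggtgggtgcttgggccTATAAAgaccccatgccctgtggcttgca
Xirp2: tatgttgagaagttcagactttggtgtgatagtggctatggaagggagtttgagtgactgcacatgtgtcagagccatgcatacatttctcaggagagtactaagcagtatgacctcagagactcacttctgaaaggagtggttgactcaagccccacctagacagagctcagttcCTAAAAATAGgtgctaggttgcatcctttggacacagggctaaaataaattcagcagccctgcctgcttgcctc
Fhl1: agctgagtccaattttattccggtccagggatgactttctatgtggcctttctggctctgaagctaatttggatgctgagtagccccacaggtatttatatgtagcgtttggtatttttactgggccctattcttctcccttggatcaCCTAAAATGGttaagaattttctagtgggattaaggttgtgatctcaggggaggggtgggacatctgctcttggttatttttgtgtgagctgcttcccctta
Fhl2: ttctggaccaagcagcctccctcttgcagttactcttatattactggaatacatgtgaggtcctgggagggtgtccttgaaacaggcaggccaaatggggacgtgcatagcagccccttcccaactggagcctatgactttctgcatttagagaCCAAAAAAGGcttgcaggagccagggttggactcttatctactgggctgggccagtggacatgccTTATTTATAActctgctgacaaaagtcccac
Myoz2: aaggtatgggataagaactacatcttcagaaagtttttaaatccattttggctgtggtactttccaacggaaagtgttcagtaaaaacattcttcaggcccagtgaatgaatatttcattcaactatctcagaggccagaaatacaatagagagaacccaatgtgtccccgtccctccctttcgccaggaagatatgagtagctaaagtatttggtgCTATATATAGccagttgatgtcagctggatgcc

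CATTCC was found in 2 of the 9 members with a window. The Ankrd1 window held it at 210 to 205 and at 123 to 118 bases before the start, in both places on the opposite strand, and a Flnc window held it at 104 to 99 bases. CATTCC was in 2 of the 14 windows of the members and in 12.6% of all 32851 windows of this length. The CArG box was found in 5 of the 14 windows, of Fhl1, Fhl2 and Ldb3, and in 1.47% of all windows. The Ldb3 windows overlap and hold the same site. The MEF2 box was found in 3 of the 14 windows, of Xirp2, Fhl2 and Myoz2, and in 2.92% of all windows. In Fhl2 and Myoz2 the MEF2 match lay at 31 to 22 and 33 to 24 bases before the start. TATAAA was found in Ankrd2 alone among the 9 and in 7.59% of all windows, and CACGTG was in none of the 14 windows of the members against 6.02% of all windows. A match is a stretch of letters and not a measured binding site. Of the CArG box genes Fhl1 rose with TAC in both genotypes, and Fhl2 and Ldb3 did not pass in either in the main analysis. A link between a box and the response to TAC was not tested.

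Levels were compared between genes per kilobase of merged exon. In WT sham, Fhl2 stood highest at 967 ± 73.3 CPM per kb (SD, n = 4) and did not overlap Csrp3, the next gene, at 490 ± 43.5. Ankrd1 (274 ± 145), Ldb3 (207 ± 15.4) and Myoz2 (207 ± 15.6) followed, with overlap between neighbours from Csrp3 down to Myoz2. A lower tier of Flnc (62.7 ± 12.1), Xirp1 (60.1 ± 8.62), Fhl1 (53.4 ± 16.6) and Xirp2 (35.9 ± 7.69) overlapped between neighbours and lay below Myoz2 in every library. Ankrd2 was last at 0.314 ± 0.174. In cKO TAC the order began with Ankrd1 at 1252 ± 207 CPM per kb, above Fhl2 at 780 ± 105 in every library, and Xirp2 (183 ± 48.4), Flnc (177 ± 52.1) and Fhl1 (167 ± 50.5) followed Ldb3 (202 ± 11.1) with overlap between neighbours. Ankrd1 and Fhl2 overlapped in the 2 groups between, at 875 ± 196 and 911 ± 99.2 in WT TAC and at 687 ± 207 and 970 ± 190 in cKO sham.

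**Figure D1:**
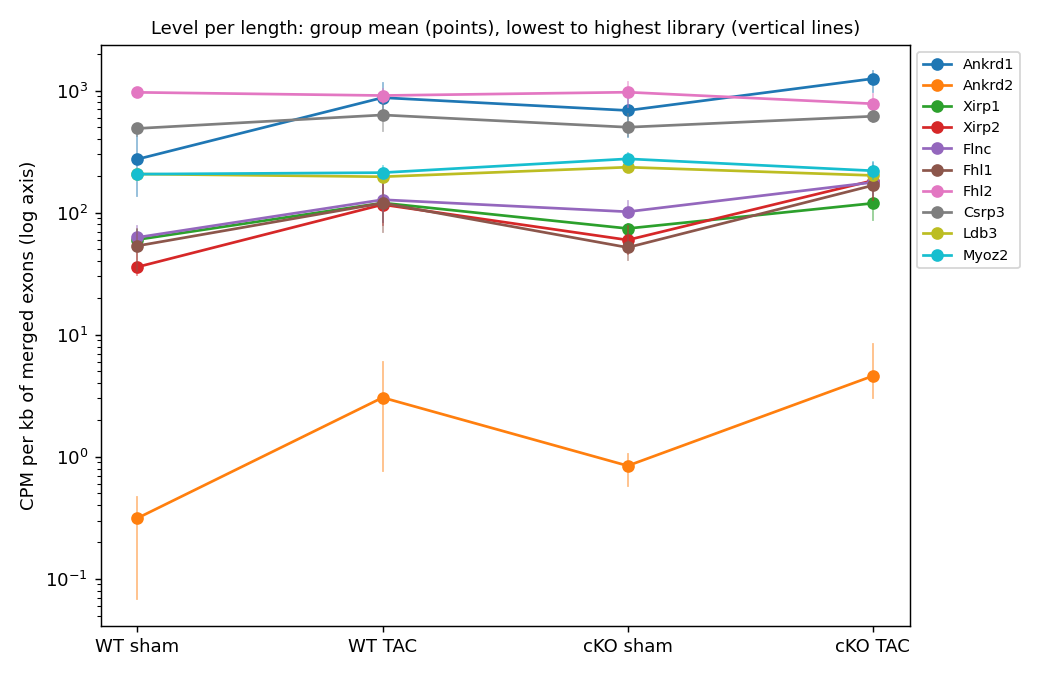
Level of each of the 10 genes in CPM per kilobase of merged exon (vertical log axis) in the 4 groups; points are group means over 4 libraries and vertical lines run from the lowest to the highest library. Fhl2 led in WT sham at 967 CPM per kb, Ankrd1 led in cKO TAC at 1252, and Ankrd2 stayed below all others.

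Whether pressure overload changed these genes in control hearts was asked by comparing WT TAC with WT sham. A change passed when its p-value, adjusted over all 15206 tested genes, was under 0.05, and each log2 fold change was estimated by edgeR and is given with its standard error (SE). In WT hearts 6 of the 10 genes rose with TAC and 0 fell: Ankrd1, Ankrd2, Xirp1, Xirp2, Flnc and Fhl1. Of all tested genes, 9.70% passed as higher in WT TAC and 6.14% as lower. The median log2 fold change was 1.01 over the 10 genes and -0.015 over all tested genes.

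Ankrd1, which encodes the cardiac ankyrin repeat protein that binds titin and also enters the nucleus, stood at 394, 686, 1384 and 701 CPM in WT sham replicates 1 to 4. In WT TAC it stood at 3339, 2029, 2376 and 2359 CPM. Every TAC library lay above every sham library, with WT sham replicate 3, which also held the most atrial transcripts, the highest of the sham group. The change was 1.67 log2, or 3.19-fold (SE 0.32, adjusted p = 0.00305), and with WT sham replicate 3 and WT TAC replicate 4 left out it was 2.12 log2 (SE 0.29, adjusted p = 0.000373).

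Ankrd2, a relative of Ankrd1 that is typical of slow skeletal muscle, was close to the limit of detection. Its raw counts were 7, 5, 6 and 1 in the WT sham libraries and 102, 47, 41 and 15 in WT TAC. The groups did not overlap, and the highest WT TAC library (6.78 CPM) exceeded the lowest (0.875 CPM) by a larger ratio than in any other of the 10 genes. The log2 fold change was 3.24 (SE 0.61, adjusted p = 0.00227), resting on few counts in the sham libraries.

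Xirp1 and Xirp2 encode actin-binding repeat proteins of the intercalated disc and Z-disc. Xirp2 was 381, 407, 566 and 366 CPM in WT sham against 2269, 1148, 1215 and 948 CPM in WT TAC, a rise of 1.70 log2, or 3.24-fold (SE 0.27, adjusted p = 0.000686). All 4 TAC libraries lay above all 4 sham libraries. Xirp1 was 323, 419, 356 and 305 CPM in WT sham against 1172, 586, 560 and 487 CPM in WT TAC (1.00 log2, SE 0.26, adjusted p = 0.0171). Its groups did not overlap either, but TAC replicate 1 lay far above the other 3 TAC libraries, and without it the change was 0.63 log2 (SE 0.19, adjusted p = 0.0532).

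Flnc, the muscle filamin that crosslinks actin at the Z-disc and membrane, was 496, 621, 737 and 503 CPM in WT sham. In WT TAC it was 1929, 1065, 1025 and 781 CPM, 2.04-fold higher by the fit (1.03 log2, SE 0.25, adjusted p = 0.0119), with no overlap. Fhl1 encodes a four-and-a-half LIM domain protein that binds titin. It was 196, 203, 273 and 122 CPM in WT sham against 700, 460, 362 and 258 CPM in WT TAC (1.16 log2, SE 0.31, adjusted p = 0.0195). Here the groups touched, since the lowest TAC library lay below the highest sham library.

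The other 4 genes did not pass in WT hearts. Csrp3, the muscle LIM protein of the Z-disc, was 1358, 1388, 1350 and 1135 CPM in WT sham against 2041, 1677, 1776 and 1249 CPM in WT TAC (0.37 log2, SE 0.14, adjusted p = 0.0908). Its lowest TAC library was WT TAC replicate 4, and without that library the change was 0.48 log2 and passed (SE 0.14, adjusted p = 0.0255). Csrp3 also passed with library totals (0.49 log2, adjusted p = 0.0166), with libraries scaled to cardiomyocyte transcripts (0.53 log2, adjusted p = 0.0459) and without both WT libraries rich in atrial transcripts (0.50 log2, adjusted p = 0.0357). Fhl2, a second LIM domain protein of the sarcomere, had a log2 fold change of -0.09 (SE 0.13). Ldb3, the PDZ and LIM protein that stabilises the Z-disc (Cypher or ZASP), had -0.07 (SE 0.09). Myoz2, the calsarcin that links alpha-actinin to calcineurin, had 0.04 (SE 0.11). For these 3 genes the standard errors were small, the libraries of both groups overlapped, and Fhl2 and Ldb3 had estimates of the opposite sign, 0.07 and 0.07, when libraries were scaled to 6 cardiomyocyte transcripts (Tnnt2, Tnni3, Tnnc1, Myl2, Myl3 and Mybpc3), and 0.04 and 0.05 with library totals alone.

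Among the libraries of WT TAC, replicate 1 was the highest in 8 of the 10 genes and replicate 4 the lowest in 9. The calls of Xirp1 and Fhl1 were lost when WT sham replicate 1, WT sham replicate 4 or WT TAC replicate 1 was left out (adjusted p = 0.0503 to 0.0766). The calls of Ankrd1, Ankrd2, Xirp2 and Flnc held when any 1 library was left out. With the cardiomyocyte scaling Flnc (1.17 log2, adjusted p = 0.0561) and Fhl1 (1.32 log2, adjusted p = 0.0507) had larger estimates and did not pass, and without the filter on low counts Xirp1 (adjusted p = 0.0609) and Fhl1 (adjusted p = 0.0563) did not pass. Fhl1 also did not pass with the compared groups alone (adjusted p = 0.0512).

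**Figure D2:**
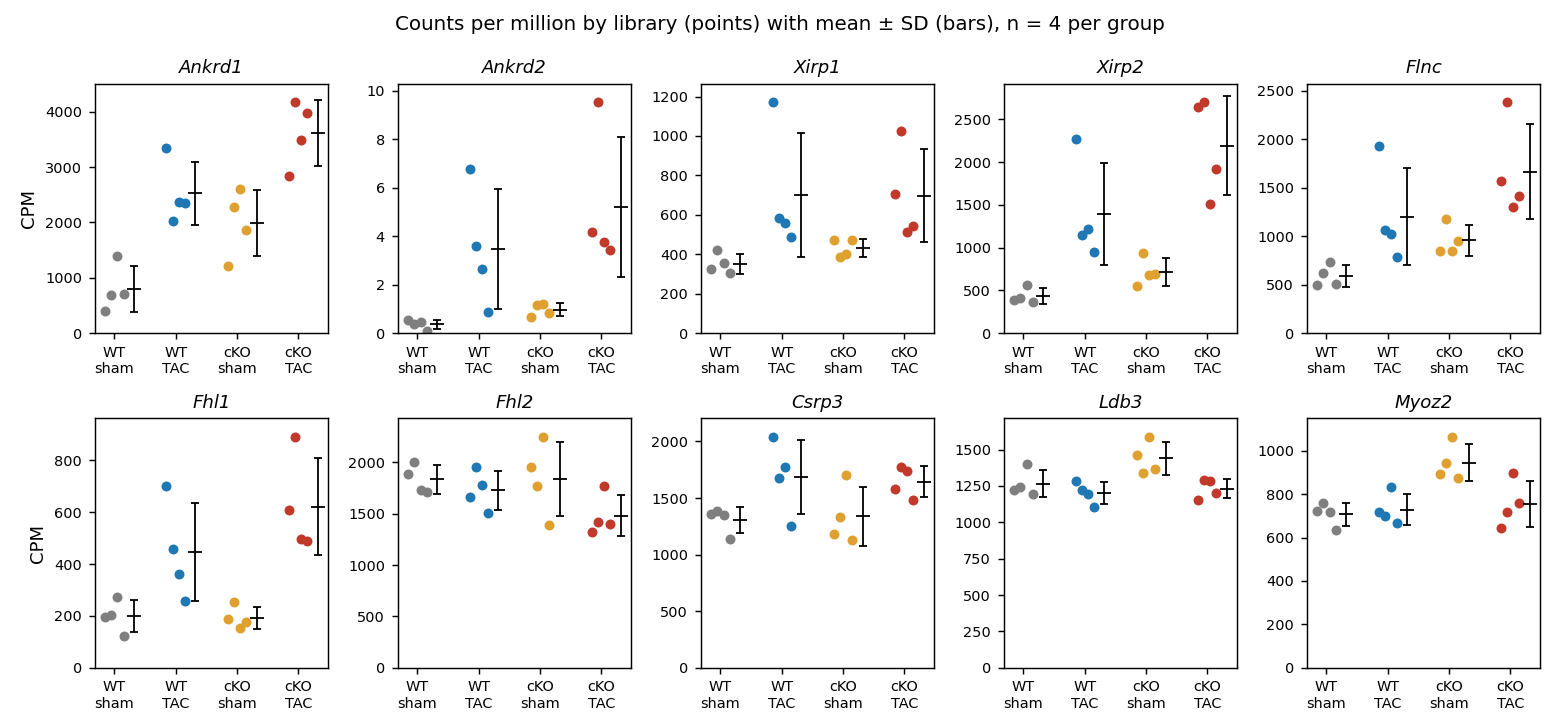
CPM (vertical axes, each starting at 0) of the 10 genes in each of the 16 libraries, by group, with the mean ± SD of 4 libraries beside the points. Ankrd1, Ankrd2, Xirp1, Xirp2 and Flnc show no overlap between WT sham and WT TAC, whereas Fhl2, Ldb3 and Myoz2 overlap there.

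The same question was asked in hearts whose cardiomyocytes lack Tfeb, comparing cKO TAC with cKO sham. Of the 10 genes 4 rose (Xirp2, Fhl1, Ankrd2 and Flnc) and Myoz2 alone fell. Over all tested genes 14.2% passed as higher and 12.4% as lower in cKO TAC. The median was 0.74 log2 over the 10 genes and 0.0034 over all tested genes.

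Xirp2 was 550, 934, 682 and 694 CPM in cKO sham and 2648, 2703, 1512 and 1917 CPM in cKO TAC, 3.07-fold higher (1.62 log2, SE 0.27, adjusted p = 0.000542). The lowest TAC library was well above the highest sham library. Fhl1 was 189, 253, 153 and 175 CPM in cKO sham and 608, 890, 497 and 489 CPM in cKO TAC, 3.23-fold higher (1.69 log2, SE 0.31, adjusted p = 0.00139). No overlap remained in this genotype, unlike for Fhl1 in WT.

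Ankrd2 had raw counts of 10, 18, 16 and 12 in cKO sham and 66, 151, 60 and 57 in cKO TAC (2.44 log2, SE 0.51, adjusted p = 0.00262). Flnc was 846, 1179, 847 and 951 CPM in cKO sham and 1566, 2382, 1299 and 1416 CPM in cKO TAC (0.80 log2, SE 0.25, adjusted p = 0.0262). Neither gene's groups overlapped, and in both cKO TAC replicate 2 was the highest library. The Flnc call was lost without cKO sham replicate 1, 3 or 4 or cKO TAC replicate 1 or 2 (adjusted p = 0.0543 to 0.105). It was also lost without the filter on low counts (adjusted p = 0.0992).

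Ankrd1 and Xirp1 did not pass in cKO, although their TAC libraries all lay above their sham libraries. Ankrd1 was 1212, 2271, 2598 and 1855 CPM in cKO sham and 2831, 4174, 3481 and 3972 CPM in cKO TAC (0.87 log2, or 1.82-fold, SE 0.31, adjusted p = 0.0535). It passed without WT sham replicate 1 or 3, libraries that enter this comparison only through the shared estimate of spread (adjusted p = 0.0233 and 0.0125), and by DESeq2 (adjusted p = 0.043). With library totals its change was 1.06 log2 (adjusted p = 0.0315) and with the cardiomyocyte scaling 1.36 log2 (adjusted p = 0.0207). It further passed with a filter that asks for 1 CPM in 4 libraries (adjusted p = 0.049), with the compared groups alone (adjusted p = 0.0129) and without the 2 WT libraries rich in atrial transcripts. Xirp1 was 473, 386, 399 and 473 CPM in cKO sham and 704, 1027, 511 and 544 CPM in cKO TAC (0.69 log2, SE 0.26, adjusted p = 0.0598), and passed without WT TAC replicate 1 or cKO TAC replicate 3 (adjusted p = 0.0105 and 0.0368) and by DESeq2 (adjusted p = 0.0246). It also passed with library totals (0.88 log2, adjusted p = 0.0256) and with the cardiomyocyte scaling (adjusted p = 0.0106).

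Myoz2 was 894, 945, 1064 and 875 CPM in cKO sham and 644, 719, 897 and 758 CPM in cKO TAC. It fell by 0.32 on the log2 scale (SE 0.11, adjusted p = 0.0355) with TMM factors, but not with library totals (-0.13) and with the opposite sign, 0.15, when scaled to the 6 cardiomyocyte transcripts. Among the TAC libraries replicate 3 lay within the sham range. The call was lost without cKO sham replicate 1, 2 or 3 or cKO TAC replicate 1, 2 or 4 (adjusted p = 0.0512 to 0.118). It was also lost with the compared groups alone (adjusted p = 0.0558).

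Ldb3 was 1461, 1341, 1587 and 1365 CPM in cKO sham and 1151, 1291, 1285 and 1200 CPM in cKO TAC, with every TAC library below every sham library (-0.22 log2, SE 0.09, adjusted p = 0.0752), and it passed as lower by DESeq2 (adjusted p = 0.0148). Fhl2 ranged from 1386 to 2249 CPM in cKO sham and from 1326 to 1773 CPM in cKO TAC (-0.31 log2, adjusted p = 0.0923) and passed as lower without cKO sham replicate 4 or cKO TAC replicate 3 (adjusted p = 0.0242 and 0.0302). Scaled to the 6 cardiomyocyte transcripts, both estimates were positive, 0.27 for Ldb3 and 0.18 for Fhl2, and did not pass. Csrp3 ranged from 1132 to 1704 CPM in cKO sham and from 1481 to 1779 CPM in cKO TAC (0.30 log2, adjusted p = 0.137), and it passed as higher without cKO sham replicate 3 (0.43 log2, adjusted p = 0.039) and with that scaling (0.80 log2, adjusted p = 0.000873). Of the 10 cardiomyocyte markers 6 fell in cKO TAC and 2 in WT TAC under TMM factors, beside 12.4% and 6.14% of all tested genes. Of the 6 scaling transcripts Tnnt2, Tnni3, Myl2 and Myl3 fell in cKO TAC, and Tnnc1 and Mybpc3 did not pass. A rise in cKO TAC under that scaling is thus relative to transcripts that mostly fell, and the median over all tested genes there was 0.495 log2. The part of the fall of the markers in the values of the 10 genes was not tested.

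**Figure D3:**
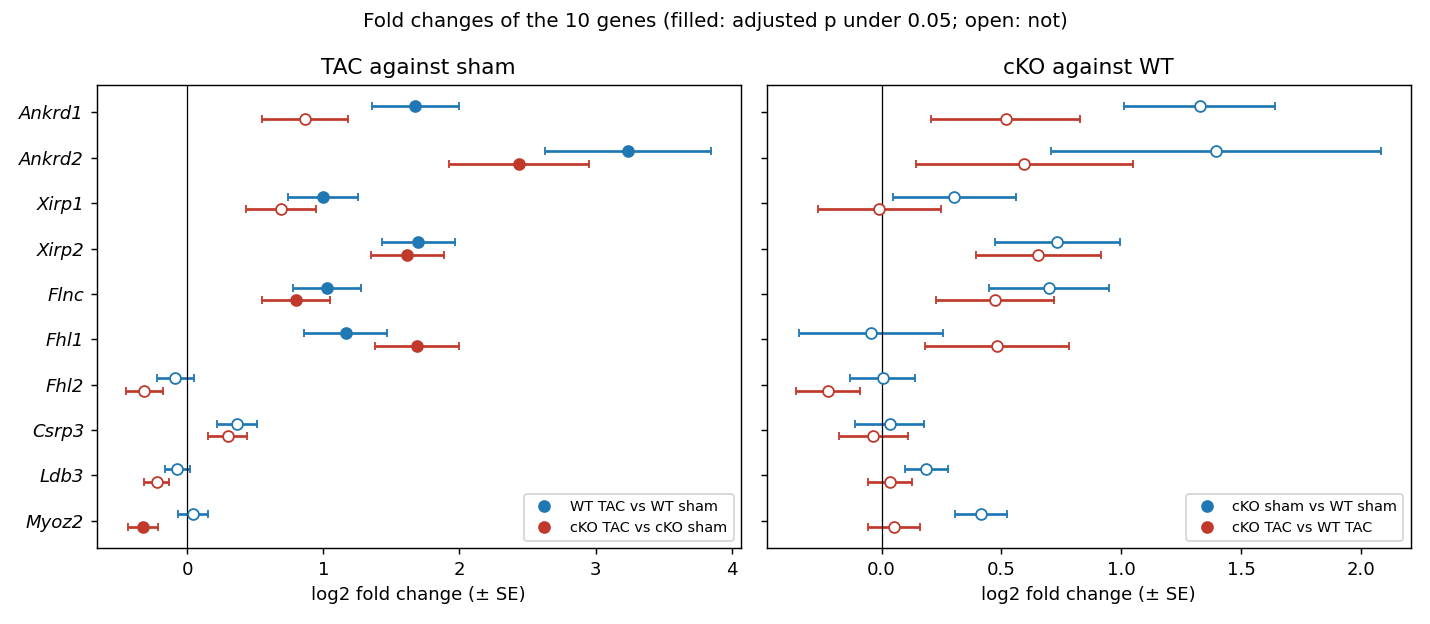
Log2 fold changes with standard errors (horizontal axes) of the 10 genes, for TAC against sham in each genotype on the left and cKO against WT in each surgery on the right; filled points passed at an adjusted p under 0.05 and open points did not. The left panel has 6 filled points for WT and 5 for cKO, of which Myoz2 alone is below 0, and the right panel has none.

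The difference between the responses to TAC in cKO and WT was tested as an interaction. Of the 10 genes 0 passed, and of all tested genes 0.00% passed. By edgeR 715 genes had an unadjusted p under 0.05, and DESeq2 called 3 genes, none of them among the 10. Myoz2 had the smallest unadjusted p of the 10 (-0.36 log2, SE 0.15, adjusted p = 0.946). For Ankrd1 the difference was -0.81 log2 (SE 0.44, adjusted p = 0.946). Once the 2 WT libraries rich in atrial transcripts were left out it was -1.25 log2 (SE 0.36, adjusted p = 0.768), and with the cardiomyocyte scaling -0.40 log2 (SE 0.59, adjusted p = 0.7). For Fhl1 it was 0.53 log2 (adjusted p = 0.96).

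What loss of Tfeb did in the unloaded heart was asked by comparing cKO sham with WT sham. This comparison shares its WT sham libraries with the WT TAC comparison and its cKO sham libraries with the cKO TAC comparison. By edgeR 0 of the 10 genes passed and 4 had an unadjusted p under 0.05, while DESeq2 called 2 and limma voom 1. Of all 15206 tested genes edgeR called 178 (1.17%) in either direction, DESeq2 546 and limma voom 172. How many of all tested genes had an unadjusted p under 0.05 is not given here. The estimate was higher in cKO for 9 of the 10 genes, and for Ankrd2, Myoz2 and Flnc all cKO libraries lay above all WT libraries, which 4.00% of all tested genes did. The median was 0.36 log2 over the 10 genes and -0.012 over all tested genes.

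Ankrd1 averaged 1984 ± 598 CPM in cKO sham and 791 ± 420 CPM in WT sham (SD, n = 4), a difference of 1.33 log2, or 2.51-fold (SE 0.32, adjusted p = 0.0575). The groups overlapped through 1 library, WT sham replicate 3 at 1384 CPM against the lowest cKO library at 1212 CPM. That library held 2391 CPM of Myl4, Myl7 and Sln, and without it the Ankrd1 difference was 1.74 log2 (SE 0.26, adjusted p = 0.00363). Ankrd1 also passed without cKO sham replicate 1 (adjusted p = 0.038) and by DESeq2 (1.32 log2, adjusted p = 0.00772).

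**Figure D4:**
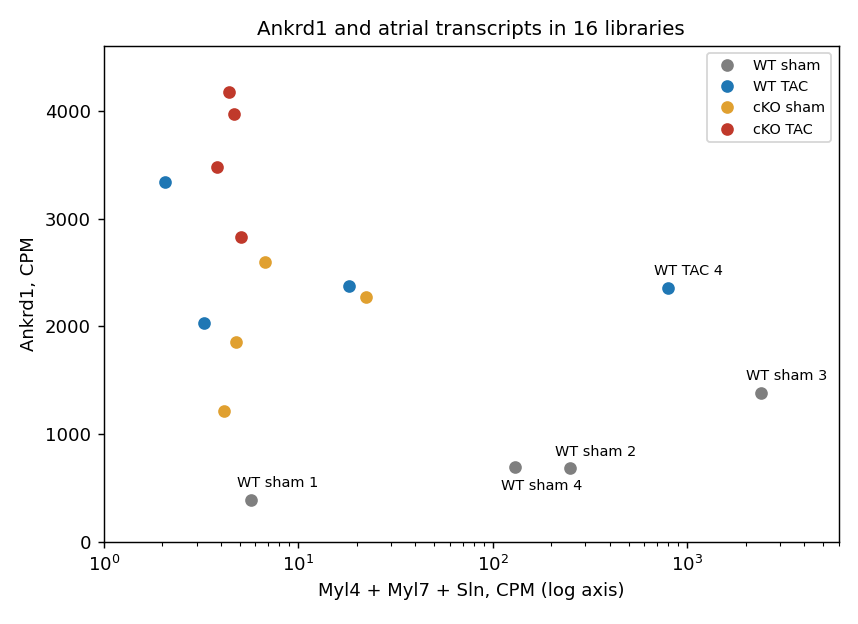
Ankrd1 in CPM (vertical axis) against the summed CPM of the atrial transcripts Myl4, Myl7 and Sln (horizontal log axis) in the 16 libraries, coloured by group. Among the WT sham libraries, replicate 3 had both the highest atrial sum, 2391 CPM, and the highest Ankrd1, 1384 CPM; the 8 cKO libraries lay between 3.81 and 22.4 CPM on the atrial axis.

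In cKO sham Myoz2 was 894, 945, 1064 and 875 CPM, against 722, 761, 716 and 634 CPM in the WT sham libraries, so that the lowest cKO library lay above the highest WT library. The difference was 0.42 log2, or 1.33-fold (SE 0.11, adjusted p = 0.0724), and it passed by DESeq2 (adjusted p = 0.0112), with library totals (adjusted p = 0.0254) and without cKO TAC replicate 3 (adjusted p = 0.0426). Flnc averaged 956 ± 157 CPM in cKO sham and 589 ± 114 CPM in WT sham (0.70 log2, adjusted p = 0.183). Xirp2 averaged 715 ± 160 and 430 ± 92.1 CPM (0.73 log2, adjusted p = 0.184), with overlap of the lowest cKO and the highest WT library. The remaining values were 1.40 log2 for Ankrd2 (adjusted p = 0.359), 0.30 for Xirp1 and 0.19 for Ldb3. Fhl1 (-0.04), Csrp3 (0.03) and Fhl2 (0.0039) had estimates near 0, and the SE was 0.30 for Fhl1, 0.14 for Csrp3 and 0.13 for Fhl2.

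After TAC the comparison of cKO with WT called 0 of the 10 genes by edgeR and 0 by DESeq2. By edgeR 1 of the 10 had an unadjusted p under 0.05. The count of all tested genes under that limit is not given here, so the 1 cannot be set against it. Of all 15206 tested genes edgeR called 271 (1.78%) in either direction and DESeq2 826. For 0 of the 10 did all cKO libraries lie above all WT libraries, which 4.89% of all tested genes did. Xirp2 had the smallest p (0.65 log2, SE 0.26, adjusted p = 0.206), at 2195 ± 580 CPM in cKO TAC and 1395 ± 594 CPM in WT TAC. WT TAC replicate 1, at 2269 CPM, lay inside the cKO range while the other 3 WT libraries lay below it. Without that replicate Xirp2 (0.99 log2, SE 0.22, adjusted p = 0.0221) and Flnc (0.79 log2, SE 0.20, adjusted p = 0.0409) passed. Ankrd1 averaged 3614 ± 598 CPM in cKO TAC and 2526 ± 565 CPM in WT TAC (0.52 log2, adjusted p = 0.43). Xirp1 was nearly level at 697 ± 236 and 701 ± 316 CPM.

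A contrast of genotypes averaged over both surgeries, chosen after seeing the data, draws on all 16 libraries. By it Ankrd1 (0.92 log2, SE 0.22, adjusted p = 0.0196), Xirp2 (0.69 log2, SE 0.18, adjusted p = 0.0296) and Flnc (0.59 log2, SE 0.18, adjusted p = 0.0474) were higher in cKO, and 4.21% of all tested genes were. Ankrd1 kept its call when any 1 of the 16 libraries was left out. Flnc lost it in 13 of those 16 fits and Xirp2 in 10. With the cardiomyocyte scaling Ankrd1 did not pass (1.07 log2, adjusted p = 0.052), nor without the filter on low counts (0.92 log2, adjusted p = 0.057). Xirp2 and Flnc did not pass in those fits either, while Myoz2 passed with the cardiomyocyte scaling (0.44 log2, adjusted p = 0.00906). Flnc also did not pass with DESeq2 size factors (adjusted p = 0.0506), library totals (0.0543) or replicate number as a block (0.0503). Myoz2 also passed with library totals (adjusted p = 0.0112), by DESeq2 (0.0313) and with replicate number as a block (0.0435). Myoz2 had 0.23 log2 (adjusted p = 0.0662) and Ankrd2 0.99 log2 (adjusted p = 0.144).

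The 10 genes divided by how far they varied over the 16 libraries. Likeness of pattern was measured as the root mean square difference of log2 CPM after each gene was centred on its own mean. Ldb3 and Myoz2 were the closest pair, at 0.139, and Fhl2 and Ldb3 came next at 0.188. Among the genes that rose in WT, Xirp1 and Flnc differed by 0.292 and Xirp2 and Fhl1 by 0.37, whereas the relatives Xirp1 and Xirp2 differed by 0.566, Ankrd1 and Ankrd2 by 0.896 and Fhl1 and Fhl2 by 0.946.

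Of 13129 genes compared outside the 10, Synpo2l was nearest to Xirp2, at 0.126. Synpo2l encodes an actin-associated protein of the Z-disc. Its level was 201 ± 24.0 CPM after sham surgery and 617 ± 290 after TAC in WT, and 332 ± 73.4 and 1013 ± 283 in cKO (SD, n = 4). The next genes were Adcy7 (0.246), Uck2 (0.25), Svep1 (0.251) and Dbn1 (0.252), about as far from Xirp2 as one another. The nearest to Ankrd1 were Fstl3 (0.351), the receptor Tnfrsf12a (0.364), Pycr1 (0.416), Lman1l (0.417) and Nppb (0.434), the brain natriuretic peptide gene. Tnfrsf12a stood at 56.7 ± 24.3 CPM after sham surgery and 167 ± 55.8 after TAC in WT, and at 115 ± 16.4 and 189 ± 40.7 in cKO.

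**Figure D5:**
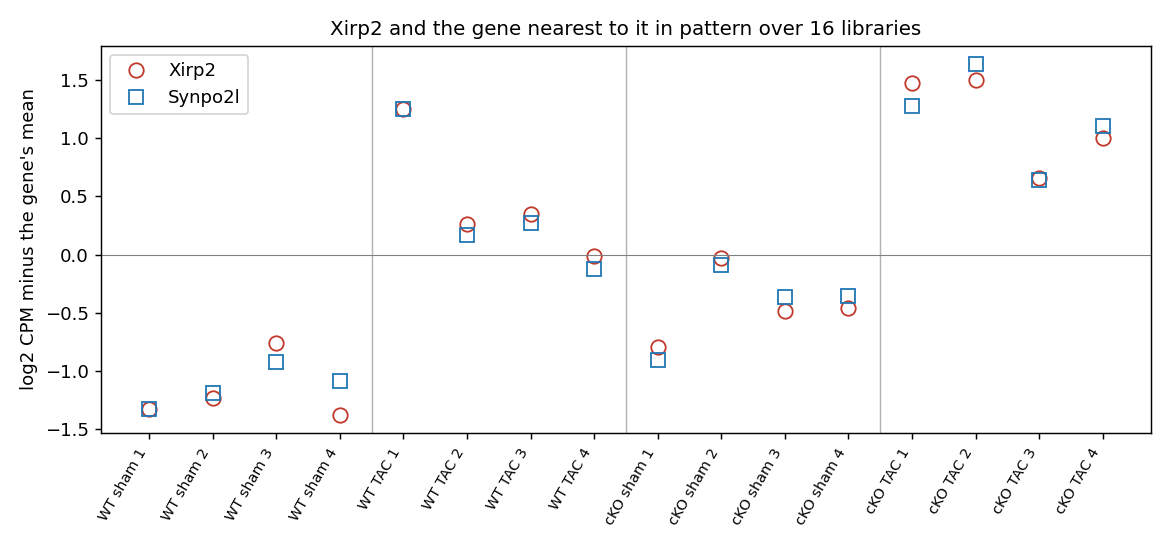
Log2 CPM of Xirp2 and Synpo2l, each minus its own mean over the 16 libraries (vertical axis), by library (horizontal axis, grouped by genotype and surgery). The root mean square difference between the 2 genes was 0.126, and both were highest within WT TAC in replicate 1 and within cKO TAC in replicate 2.

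Among 32 other genes of the Z-disc and titin, 8 rose and 3 fell in WT TAC (median 0.13 log2). Of all tested genes 9.70% rose and 6.14% fell there. With library totals 10 rose and 0 fell, beside 2170 and 432 of all 15206 tested genes. With the cardiomyocyte scaling 6 rose and 0 fell, beside 1036 and 129 of all tested genes. In cKO TAC 7 rose and 7 fell (median -0.081), beside 14.2% and 12.4% of all tested genes. With library totals 10 rose and 1 fell, beside 4013 and 877 of all 15206 tested genes. Scaled to the 6 cardiomyocyte transcripts 18 rose and 0 fell, beside 7048 and 202 of all tested genes. Synpo2l rose by 1.62 log2 in WT (SE 0.28, adjusted p = 0.00137) and by 1.61 log2 in cKO (SE 0.28, adjusted p = 0.000784). Nrap, a nebulin-related anchoring protein, rose by 0.71 log2 in WT (adjusted p = 0.00157) and by 0.38 log2 in cKO (adjusted p = 0.0413). Pdlim1, a PDZ and LIM protein, rose by 0.67 log2 and 0.40 log2 (adjusted p = 0.00244 and 0.0302).

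The small heat shock protein gene Hspb7 rose in WT (0.53 log2, adjusted p = 0.00753) and had 0.09 log2 in cKO (adjusted p = 0.639); it averaged 2534 CPM in WT sham and 3472 CPM in cKO sham (0.45 log2, adjusted p = 0.084). Unc45b, a myosin chaperone gene, fell in cKO by 0.49 on the log2 scale (adjusted p = 0.00251), and had -0.02 log2 when scaled to the 6 cardiomyocyte transcripts. Desmin (Des), the intermediate filament protein that ties Z-discs together, rose with TAC in WT (0.50 log2, adjusted p = 0.0267) and in cKO (0.62 log2, adjusted p = 0.00487).

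Between genotypes, Obsl1, an obscurin-like gene, was higher in cKO sham than in WT sham (0.36 log2, adjusted p = 0.0414). In cKO TAC against WT TAC, Des (0.64 log2, adjusted p = 0.0346) and the adaptor gene Sorbs2 (0.61 log2, adjusted p = 0.0334) were higher. Actn2, the alpha-actinin of the Z-disc, was lower (-0.40 log2, adjusted p = 0.0401). Without WT sham replicate 3 and WT TAC replicate 4 none of these differences passed, with estimates of 0.39 log2 for Obsl1 (adjusted p = 0.0506), 0.59 for Des (0.0802), 0.53 for Sorbs2 (0.0511) and -0.44 for Actn2 (0.0511). With the cardiomyocyte scaling Actn2 had -0.02 log2.

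Of 22 costamere and integrin-linked genes, which tie Z-discs to the membrane, 7 rose and 0 fell in WT TAC (median 0.18 log2). The shares of all tested genes there were 9.70% and 6.14%. In cKO TAC 11 rose and 2 fell (median 0.32), beside 14.2% and 12.4% of all tested genes. With library totals 13 rose and 0 fell in cKO TAC, beside 4013 and 877 of all 15206 tested genes. With the cardiomyocyte scaling 17 rose and 0 fell (median 0.82), beside 7048 and 202 of all tested genes (median 0.495). The fibronectin receptor subunit Itga5 rose by 0.85 log2 in WT (adjusted p = 0.000694) and 0.83 log2 in cKO (adjusted p = 0.000452). Vasp, an actin regulator, rose by 0.51 and 0.52 log2 (adjusted p = 0.00107 and 0.000531), and Parva, a partner of integrin-linked kinase, by 0.35 and 0.48 log2 (adjusted p = 0.00332 and 0.000179). Talin 1 (Tln1) rose by 0.57 and 0.59 log2 (adjusted p = 0.00545 and 0.00244). Ptk2, the focal adhesion kinase, rose in cKO (0.34 log2, adjusted p = 0.00242) and had 0.18 log2 in WT (adjusted p = 0.0919).

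The clearest difference between genotypes in that list was dystrophin. Dmd averaged 73.2 CPM in WT sham and 31.1 CPM in cKO sham (-1.23 log2, SE 0.14, adjusted p = 0.000563), and 90.4 CPM in WT TAC and 41.3 CPM in cKO TAC (-1.13 log2, SE 0.14, adjusted p = 0.000566). All cKO libraries lay below all WT libraries in both surgeries. With the cardiomyocyte scaling the difference after TAC was -0.74 log2 (adjusted p = 0.062). Tln2 was higher in cKO TAC than in WT TAC (0.33 log2, adjusted p = 0.0323).

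Of 11 relatives of the 10 genes 9 could be tested. In WT TAC 5 rose and 1 fell (median 0.66 log2), beside 9.70% and 6.14% of all tested genes. In cKO TAC 6 rose and 0 fell (median 0.64), beside 14.2% and 12.4%. Ankrd23, the third muscle ankyrin repeat gene, rose by 1.14 log2 in WT (SE 0.19, adjusted p = 0.000739) and by 0.73 log2 in cKO (SE 0.18, adjusted p = 0.00784). Flna, a filamin gene, rose by 0.66 and 0.64 log2 (adjusted p = 0.00905 and 0.00608). Csrp2, a relative of Csrp3, rose by 0.92 log2 in WT (adjusted p = 0.0228) and 1.59 log2 in cKO (adjusted p = 0.000531), and Csrp1 by 0.63 and 0.40 log2 (adjusted p = 0.00499 and 0.0352). The PDZ and LIM gene Pdlim2 rose in cKO (1.02 log2, adjusted p = 0.000678). Pdlim4 fell in WT TAC by 0.73 on the log2 scale (adjusted p = 0.0266) and was lower in cKO sham than in WT sham (-1.06 log2, adjusted p = 0.0227), though with the cardiomyocyte scaling that difference did not pass (-1.04 log2, adjusted p = 0.0829). Without the 2 WT libraries rich in atrial transcripts, the WT TAC changes of Flna (0.52 log2, adjusted p = 0.0596) and Csrp2 (0.73 log2, adjusted p = 0.0861) did not pass. Fibroblast markers summed to 1797 to 2619 CPM after sham surgery and 2196 to 3936 after TAC in WT, and to 1936 to 2729 and 3002 to 4579 in cKO. Of these markers 3 of 7 rose and 0 fell in WT TAC, and 4 rose and 1, Gsn, fell in cKO TAC (-0.79 log2, adjusted p = 0.0204). Of 5 endothelial markers 2 rose in each genotype, and of 5 macrophage markers 4. The shares of all tested genes beside these marker counts are those given for the relatives. The part of these markers in the changes of genes that other cells also express, here and in the costamere and YAP-TEAD lists, was not tested.

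Of 23 genes of the YAP-TEAD and MRTF-SRF factors and their targets, 8 rose and 1 fell in WT TAC (median 0.28 log2). The shares of all tested genes there were 9.70% and 6.14%. In cKO TAC 7 rose and 0 fell (median 0.39), beside 14.2% and 12.4% of all tested genes. With the cardiomyocyte scaling 16 rose in cKO TAC (median 0.88) and 0 fell, beside 7048 and 202 of all 15206 tested genes (median 0.495). Nppb rose by 2.04 log2 in WT (SE 0.43, adjusted p = 0.00687) and 1.20 log2 in cKO (SE 0.42, adjusted p = 0.0468). The matricellular genes Ccn2 (1.72 and 2.05 log2, adjusted p = 0.0108 and 0.00229) and Ccn1 (0.87 and 0.92 log2, adjusted p = 0.00699 and 0.00279) rose in both genotypes. Rcan1, a calcineurin regulator, rose by 1.36 and 0.99 log2 (adjusted p = 0.00589 and 0.0188).

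Among the factors, Mrtfa rose by 0.54 and 0.38 log2 (adjusted p = 0.00622 and 0.0237) and Wwtr1, which encodes TAZ, by 0.28 and 0.40 log2 (adjusted p = 0.0209 and 0.00121). Vgll3, a TEAD cofactor, rose in cKO (1.13 log2, adjusted p = 0.00599) and had 0.48 log2 in WT (adjusted p = 0.265). Amotl2, an angiomotin that binds YAP, fell in WT TAC by 0.56 on the log2 scale (adjusted p = 0.014) and was higher in cKO TAC than in WT TAC (0.57 log2, adjusted p = 0.0499). Mrtfb was higher in cKO sham than in WT sham (0.63 log2, adjusted p = 0.0404). Without WT sham replicate 3 and WT TAC replicate 4 these genotype differences of Amotl2 (0.54 log2, adjusted p = 0.0907) and Mrtfb (0.63 log2, adjusted p = 0.0509) and the WT TAC change of Wwtr1 (0.29 log2, adjusted p = 0.0546) had like estimates and did not pass. With the cardiomyocyte scaling the WT TAC changes of Parva (0.51 log2, adjusted p = 0.0752) and Wwtr1 (0.43 log2, adjusted p = 0.159) were larger and did not pass, and those of Pdlim4 (-0.55 log2, adjusted p = 0.193) and Amotl2 (-0.41 log2, adjusted p = 0.306) were smaller and did not pass.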

How the data were processed

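Left ventricular RNA of 16 libraries was sequenced as paired ends. The authors deposited raw counts per Ensembl gene identifier, with 1 column per library. Per the submitters' processing notes the tools were featureCounts 2.0.6, HISAT2 2.0.5, fastp 0.22.0, FastQC and SAMtools 1.21, and the build was GRCm39. The annotation release, the strand setting and the handling of multimapping reads are not given in the sources used here. Of the members, Xirp2 shares 168 exon bases with an antisense gene that had 11 counts over all libraries.

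Symbols came from a GRCm38 annotation, which matched 51880 of 57186 identifiers, and so did merged exon lengths. Counts were fitted in R 4.3.3 with edgeR 4.0.16 (filterByExpr, TMM factors, robust quasi-likelihood, 1 mean per group over 16 libraries, 12 residual degrees of freedom), and p-values were adjusted by Benjamini-Hochberg over 15206 genes in each of 5 comparisons. SE is the absolute log2 fold change over the root of F. CPM uses the library total times its TMM factor, also in the sums of Myl4, Myl7 and Sln. The precision is that of 4 replicates per group, with a biological coefficient of variation of 16.5%.

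The 10 genes and 4 lists were chosen with earlier results of these data known. The text names all 10; the 4 genes per list with the lowest adjusted p in either TAC comparison; list genes past the threshold between genotypes; and the 5 genes nearest in pattern to Ankrd1 and to Xirp2. A gene that this rule names is not reported here. Alternatives changed the scaling, the filter, the tool (DESeq2 1.42.0, limma 3.58.1 voom), the libraries or the replicate block. Promoter windows came from RefSeq, GRCm38.p6, for 9 of the 10 genes, and no coordinates of GRCm39 are given.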

Additional observations from a re-analysis of the deposited data

Results flagged for a closer look

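In 3 of the 40 sets of 4 libraries (10 genes in 4 groups), 1 library stood apart from the other 3 by more than Dixon's 95% critical value for the gap divided by the range; chance gives about 1 in 20 sets. Ankrd2 was 9.54 CPM in cKO TAC replicate 2, next to 4.16 CPM in the nearest library. Xirp1 was 1172 CPM in WT TAC replicate 1, next to 586 CPM. Csrp3 was 1135 CPM in WT sham replicate 4, the lowest of its group, next to 1350 CPM. The same cKO TAC library was the highest of its group in 8 of the 10 genes, the same WT TAC library in 8, and the same WT sham library was the lowest in 8.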

How the results depend on the processing

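Over 1539 refits of the 10 genes' log2 fold changes, 1437 stayed on the same side of the threshold, 57 lost a call and 44 gained one. Among those that stayed, 67 estimates changed sign without a call in either fit. A further 1, a called value, reversed: Myoz2 in cKO TAC against cKO sham was 0.1534 log2 when scaled to 6 cardiomyocyte transcripts, so its fall depends on the scaling. Genes called in cKO TAC against cKO sham numbered 5 in the main analysis, 8 with DESeq2 and 3 to 7 with 1 replicate left out. In cKO sham against WT sham 0 became 1 with library totals, no filter, limma voom or without the 2 libraries with most atrial transcripts, 2 with DESeq2 or the replicate block, and 0 to 1 with 1 replicate left out. In cKO TAC against WT TAC 0 became 0 to 2 with 1 replicate left out. The averaged genotype contrast called 3, against 1 (Myoz2) with the cardiomyocyte scaling, 0 without a filter and 1 to 4 with 1 replicate left out. WT TAC against WT sham called 4 to 7 genes with 1 replicate left out, against 6. The causes of these moves were not tested.

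The labels do not say that a replicate number marks a shared litter, batch or day. Over 24 pairs of libraries with the same number the correlation of deviations from the group means ran from -0.16 to 0.229, with 4 above 0.1. Pairs with different numbers ran from -0.281 to 0.239. Whether libraries share a litter, batch or day cannot be read from these correlations. With the replicate block 6, 6, 2, 0 and 0 of the 10 genes were called in the 5 comparisons and 3 in the averaged contrast. Of all 15206 tested genes 2336, 3986, 235, 302 and 0 were called in the 5 comparisons and 1305 in the averaged contrast. In that contrast Flnc lost its call with the block (adjusted p = 0.0503) and Myoz2 gained one (adjusted p = 0.0435).

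Over all genes, library totals moved the median log2 fold change to 0.11 in WT TAC and 0.196 in cKO TAC, and the cardiomyocyte scaling to 0.148 and 0.495. Mitochondrially encoded counts made up 21.1 to 25.8% of the totals in WT sham and 17.1 to 22.6% in WT TAC. In cKO they made up 21.9 to 24.1% after sham surgery and 16.1 to 20.4% after TAC. The part of this share in the values with library totals was not tested. Calls of 1475 higher and 934 lower in WT TAC became 2170 and 432 with library totals and 1036 and 129 with the cardiomyocyte scaling; 2154 and 1880 in cKO TAC became 4013 and 877, and 7048 and 202. The 178 calls of cKO sham against WT sham became 45 with that scaling, 546 with DESeq2 and 59 to 222 with 1 replicate left out. The 271 of cKO TAC against WT TAC became 438 without a filter, 826 with DESeq2, 152 from the compared groups alone, 165 without the 2 libraries with most atrial transcripts and 13 to 912 with 1 replicate left out; at 91 higher and 180 lower, they became 330 and 20 with the cardiomyocyte scaling. WT TAC calls fell to 1234 at the lowest with 1 replicate left out, from 2409, and cKO TAC calls were 2720 to 4633, from 4034; the averaged contrast's 1377 were 819 to 1845.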
